A study of Homo sapiens with 4 samples.

Results

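The HOX cluster genes were followed in U87, an established human glioma cell line, on 4 single-colour Affymetrix arrays. Members were chosen by name alone. A probe set, a group of short probes summarized as 1 value, counted when the platform annotation gave it exactly 1 gene. That gene had to carry a HOXA, HOXB, HOXC or HOXD symbol. This gave 42 probe sets for 28 of the 39 human HOX genes, of 41920 probe sets in the table. All 4 RNA samples came from cells with QK (QKI, an RNA-binding protein) knocked down. Of these, 2 were transduced with miR-20a and 2 with miR-NT, a non-targeting microRNA of scrambled sequence. Whether those in a group came from separate cultures is not stated in the labels. The p-values therefore cover only the spread seen between them, which may be technical.

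HOX genes encode homeodomain transcription factors that give cells their position along the head-to-tail axis of the embryo. They lie in 4 clusters, HOXA on chromosome 7, HOXB on chromosome 17, HOXC on chromosome 12 and HOXD on chromosome 2, and carry numbers that mark paralogue groups, the counterparts of 1 ancestral gene in the different clusters. Low-numbered genes pattern the hindbrain and neck, middle ones the trunk, and high-numbered ones the lumbar and tail regions, limbs and urogenital tract. The forebrain forms without them, yet many gliomas transcribe HOX genes. TALE-class proteins (PBX, MEIS, PKNOX) bind DNA together with HOX proteins, Polycomb complexes keep the clusters silent, trithorax complexes keep them active, and retinoic acid switches on the low-numbered genes.

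The clusters also encode microRNAs of their own. A microRNA pairs with its targets mainly through its seed, bases 2 to 8. The supplied microRNA and 4 that lie in HOX clusters are printed here so that their seeds can be compared. Sequences are RefSeq's (GRCh38.p14), 5′ to 3′, with the seed in capitals.
hsa-miR-20a-5p: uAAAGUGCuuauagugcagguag
hsa-miR-10a-5p: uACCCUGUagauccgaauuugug
hsa-miR-196a-5p: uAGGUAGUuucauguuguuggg
hsa-miR-196b-5p: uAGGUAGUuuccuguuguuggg
hsa-miR-615-3p: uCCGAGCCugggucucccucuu
The 5 sequences held 4 different seeds. miR-196a and miR-196b shared theirs, and 0 of the HOX cluster microRNAs had the seed of miR-20a. miR-196 is known to cleave the HOXB8 transcript. The levels of these mature microRNAs were not analysed here.

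Array medians lay between 6.97 and 7.01 log2 units. The arrays correlated at 0.9946 within miR-20a, 0.9961 within miR-NT and 0.9907 to 0.9935 across the groups. QKI, knocked down in both groups, had its highest probe set at 9.45 ± 0.11 log2 units on the miR-20a arrays and 9.28 ± 0.14 on the miR-NT arrays (SD, n = 2 each, limma adjusted p = 0.45). Of its 10 probe sets 6 had a lower mean in miR-20a cells, and the smallest p belonged to one with a change of -0.43 ± 0.12 (SE, limma adjusted p = 0.17), without overlap. Cells with normal QK were not analysed here, so these levels do not check the knockdown. Among glial and neural markers, VIM, the intermediate filament vimentin, stood at 14.66 ± 0.03 in miR-20a cells and 14.68 ± 0.03 in miR-NT cells. By their highest probe sets, CD44 of the same list was at 12.64 ± 0.10 and 12.45 ± 0.04, and SLC1A3 at 8.79 ± 0.04 and 8.99 ± 0.05. The astrocyte filament gene GFAP reached only 7.13 ± 0.27 and 7.11 ± 0.25 by its highest probe set (SD, n = 2 each). S100B, a calcium-binding protein of astrocytes, was at 4.92 ± 0.18 and 4.90 ± 0.09. The values carry no detection calls, so it was not established which of these low levels lie above background.

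None of the 28 measured HOX genes changed past the threshold when miR-20a cells were compared with miR-NT cells. With limma and Benjamini-Hochberg adjustment over all probe sets (threshold 0.05), 0 of 42 HOX probe sets were higher, where 0.119% of all probe sets were, and 0 were lower, where 0.0167% were. At an unadjusted p under 0.05, 0 HOX probe sets were higher, against 9.46% of all, and 3 were lower, against 8.4% of all. The 3 were probe sets of HOXB3, HOXD13 and HOXB9. The largest difference was 1.29-fold, for HOXB3, and 6.53% of all probe sets differed by more. The 95% intervals of the HOX log2 changes reached between 0.21 and 0.41 to either side of the estimate, and the threshold on adjusted p-values is stricter than these intervals. In bulk RNA, fewer cells of a kind and less RNA per cell cannot be told apart.

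The HOX probe sets had a median log2 change of -0.06, against -0.02 over all probe sets. Their mean was lower in miR-20a cells for 29 of 42, or 69%, where 55.2% of all probe sets were lower. Both miR-20a arrays lay below both miR-NT arrays for 12 HOX probe sets, where 27.2% of all did, and above them for 2, where 21.7% of all did. For the other 28 the arrays of the groups overlapped. This depended on the arrays used. Leaving out miR-20a replicate 1 gave a median change of -0.02, with 24 of 42 lower, against 53.1% of all. Leaving out miR-20a replicate 2 gave -0.10, with 34 of 42 lower, against 55.6% of all. Without miR-NT replicate 1 the median was -0.08, with 25 of 42 lower, against 52.8% of all. Without miR-NT replicate 2 it was -0.06, with 32 of 42 lower, against 55.1% of all. Of the 42 HOX probe sets, 20 had their lowest value of all 4 arrays on miR-20a replicate 1, against 30.1% of all probe sets.

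**Figure D1:**
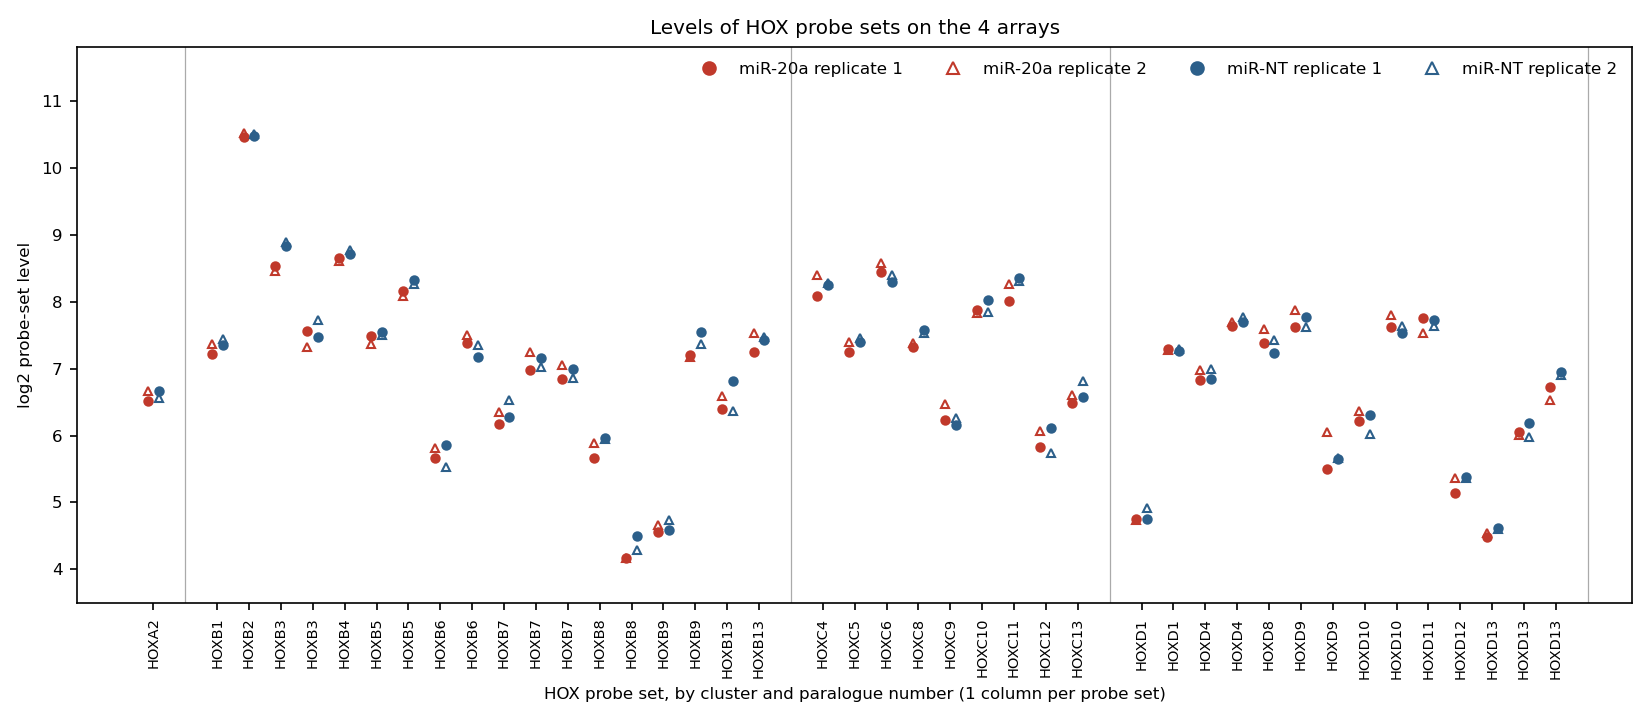
Log2 probe-set level of each HOX probe set on each array, in columns by cluster and paralogue number, with miR-20a arrays (red) left of miR-NT arrays (blue) and replicates 1 and 2 as circles and triangles. The HOXB2 probe set stood near 10.5 on all 4 arrays, and the other 41 lay between 4.17 and 8.89 on every array.

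The levels themselves are a description, because probe sets differ in how brightly they report the same amount of RNA. Percentiles place a mean level among all probe sets of the table. By the highest probe set of each gene, 21 of 28 HOX genes were above the 50th percentile, 5 above the 75th and 1 above the 90th. The 10 highest were HOXB2, HOXB4, HOXB3, HOXC6, HOXC4, HOXC11, HOXB5, HOXC10, HOXD9 and HOXD4, of which 4 are HOXB, 4 HOXC and 2 HOXD genes. As a yardstick, 39 probe sets for 18 marker genes of blood, endothelial and epithelial cells ranged from 3.69 to 8.70 log2 units, with a median of 6.41. Of the 42 HOX probe sets, 29 lay above this median and 1, that of HOXB2, above the range. The top of the range was 1 PECAM1 probe set, whose others lay between 6.41 and 6.92. Without detection calls, the yardstick does not show which HOX genes were expressed.

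The HOXA cluster was represented by 1 of its 11 genes. HOXA2, which patterns the hindbrain and the second pharyngeal arch, was at 6.51 and 6.66 log2 units on the miR-20a arrays and 6.66 and 6.56 on the miR-NT arrays. The arrays overlapped, and the log2 change was -0.02 ± 0.10 (SE, limma adjusted p = 0.94). The other HOXA genes were not analysed here.

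All 10 HOXB genes were measured, by 18 probe sets, and 14 of the probe sets had a lower mean in miR-20a cells, where 55.2% of all did. The median change was -0.10, the furthest from 0 of the 3 clusters with several members, and at an unadjusted p under 0.05 (limma) 2 probe sets had lower values, against 8.4% of all, and 0 had higher ones, against 9.46%. Groups did not overlap for 8 of the 18, with 7 below, where 27.2% of all probe sets were, and 1 above, where 21.7% were. No test compared the clusters.

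HOXB2, a hindbrain gene, was the brightest HOX gene, with 10.46 and 10.51 log2 units in miR-20a cells and 10.47 and 10.50 in miR-NT cells. The 4 arrays agreed to within 0.05 units, and the change of -0.00082 ± 0.09 (SE) had a 95% interval from -0.21 to 0.21. HOXB1, an early hindbrain gene, was at 7.22 and 7.36 in miR-20a cells against 7.36 and 7.44 in miR-NT cells. The higher miR-20a array of HOXB1 thus overlapped the lower miR-NT array.

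HOXB3, which acts in the hindbrain and in blood progenitors, showed the smallest p of the set. Its brighter probe set gave 8.53 and 8.46 log2 units on the miR-20a arrays, against 8.83 and 8.89 on the miR-NT arrays. Both miR-20a values were well below both miR-NT values, and the spread within each group was small. The log2 change was -0.36 ± 0.09 (SE; limma unadjusted p = 0.0055, adjusted p = 0.15). Its limma adjusted p was past the threshold in no other setting that kept this probe set apart, and was lowest, at 0.065, with a variance trend and robust fit. The dimmer probe set gave 7.56 and 7.32 in miR-20a cells and 7.47 and 7.73 in miR-NT cells, with overlap and a change of -0.16 ± 0.13.

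The next genes along the cluster were lower by less. HOXB4, known for its use in expanding blood stem cells, was at 8.66 and 8.60 in miR-20a cells and 8.71 and 8.77 in miR-NT cells. HOXB5, which acts in the lung and the enteric nervous system, was at 8.16 and 8.09 against 8.33 and 8.26 by its brighter probe set. For both genes every miR-20a array was below every miR-NT array, but the changes of -0.11 ± 0.09 and -0.17 ± 0.09 (SE) had limma adjusted p-values of 0.57 and 0.37. The other HOXB5 probe set was at 7.48 and 7.37 against 7.55 and 7.51, also without overlap. From HOXB2 to HOXB5, a run picked out after its values were seen, all 6 probe sets had a lower mean, where 55.2% of all did. Of these, 4 lay below without overlap, where 27.2% of all probe sets did.

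HOXB6 and HOXB7, trunk-patterning genes, were not lower in mean in every probe set. The brighter HOXB6 probe set stood at 7.38 and 7.51 in miR-20a cells, against 7.17 and 7.36 in miR-NT cells. It was 1 of the 2 HOX probe sets with both miR-20a arrays above both miR-NT arrays, by 0.18 ± 0.11 (SE, limma adjusted p = 0.41). The dimmer HOXB6 probe set overlapped, at a change of 0.04 ± 0.13. The 3 HOXB7 probe sets all overlapped, with changes of -0.14, 0.02 and 0.02.

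HOXB8 and HOXB9, which pattern the thoracic region, were again lower in mean. HOXB8 was at 5.66 and 5.89 in miR-20a cells and 5.96 and 5.95 in miR-NT cells by its brighter probe set. By the dimmer one it was at 4.17 and 4.17 against 4.50 and 4.30. Neither overlapped, with changes of -0.18 ± 0.11 and -0.23 ± 0.10 (SE) and limma adjusted p-values of 0.43 and 0.30. HOXB9 was at 7.20 and 7.16 in miR-20a cells against 7.55 and 7.37 in miR-NT cells, a change of -0.27 ± 0.10 (limma unadjusted p = 0.030, adjusted p = 0.23). Its second probe set, near the bottom of the scale, changed by only -0.05 ± 0.10. HOXB13, known from the prostate, had 2 overlapping probe sets with changes of -0.10 ± 0.16 and -0.06 ± 0.12.

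All 9 HOXC genes were measured, by 1 probe set each, and 6 had a lower mean in miR-20a cells, where 55.2% of all probe sets did (median change -0.09). Without overlap, 2 lay below, where 27.2% of all did, and 1 above, where 21.7% did. HOXC6, a trunk gene, was the other HOX member with both miR-20a arrays above both miR-NT arrays: 8.45 and 8.58 against 8.30 and 8.40. The difference was 0.17 ± 0.10 (SE, limma adjusted p = 0.42). HOXC8, which specifies brachial motor neurons in the mouse, was below without overlap, at 7.32 and 7.38 in miR-20a cells against 7.58 and 7.53 in miR-NT cells (change -0.20 ± 0.09, limma adjusted p = 0.30). HOXC11, a gene of the lumbosacral region and hindlimb, was at 8.01 and 8.27 against 8.35 and 8.31. Its 2 miR-20a arrays were themselves further apart than the lower miR-NT array was from the higher miR-20a array, and the change was -0.19 ± 0.11 (limma adjusted p = 0.41).

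The other 6 HOXC genes overlapped. HOXC4 was at 8.09 and 8.40 in miR-20a cells, on either side of 8.25 and 8.28 in miR-NT cells. HOXC10, a lumbar motor neuron gene, was at 7.87 and 7.83 against 8.03 and 7.85. HOXC5, HOXC9, HOXC12 and HOXC13, the last a hair follicle and nail gene, had changes of -0.10, 0.14, 0.03 and -0.15.

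The HOXD cluster had 8 of its 9 genes measured, by 14 probe sets. Of these, 8 had a lower mean, where 55.2% of all did, and 6 a higher one (median change -0.03). Without overlap, 3 lay below, where 27.2% of all did, and 0 above, where 21.7% did. HOXD13, which patterns the digits, had its clearest signal in 1 of 3 probe sets, at 6.73 and 6.54 in miR-20a cells and 6.95 and 6.90 in miR-NT cells. Both miR-20a arrays were lower, with a log2 change of -0.29 ± 0.10 (SE; limma unadjusted p = 0.025, adjusted p = 0.22). The other HOXD13 probe sets changed by -0.09 ± 0.09, without overlap but at a level near 4.56, and by -0.05 ± 0.10, with overlap. HOXD12, a distal limb gene, was at 5.15 and 5.36 in miR-20a cells against 5.37 and 5.36 in miR-NT cells. Its higher miR-20a array was just under the lower miR-NT array.

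HOXD8, HOXD9 and HOXD10 had higher means in all 5 of their probe sets, and every one overlapped. HOXD10, a lumbar motor neuron gene, was at 7.61 and 7.80 in miR-20a cells and 7.52 and 7.64 in miR-NT cells by its brighter probe set, and its 2 probe sets gave changes of 0.13 and 0.13. HOXD8 was at 7.38 and 7.59 against 7.23 and 7.43, a change of 0.15 ± 0.12. HOXD9 rested on 1 array in its dimmer probe set: miR-20a replicate 2 read 6.05 and miR-20a replicate 1 read 5.50, against values of 5.65 and 5.66 in miR-NT cells. Its brighter probe set was at 7.62 and 7.88 in miR-20a cells and 7.76 and 7.61 in miR-NT cells, and the change of 0.06 turned to -0.07 without miR-20a replicate 2.

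The remaining HOXD genes overlapped and changed by little. HOXD4, a hindbrain gene, was at 7.64 and 7.69 in miR-20a cells against 7.69 and 7.77 in miR-NT cells by its brighter probe set. HOXD1, linked to pain-sensing neurons in the mouse, was at 7.30 and 7.27 against 7.26 and 7.29. HOXD11, which patterns the forearm and kidney, was at 7.76 and 7.52 against 7.73 and 7.63. The 3 further probe sets that name HOXD3 together with HOXD4 and a further gene were dim, between 3.95 and 5.64 on every array, and belong to no single HOX gene.

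**Figure D2:**
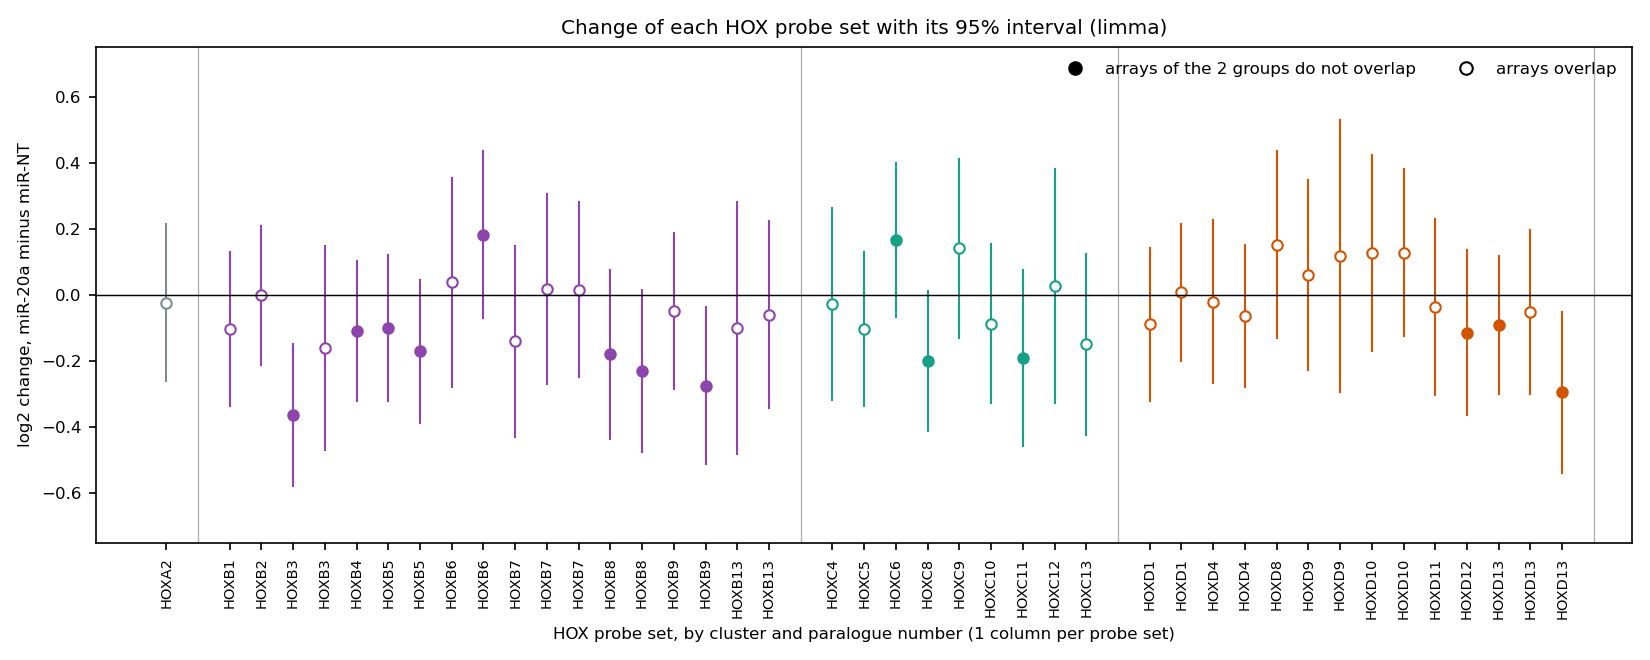
Log2 change (miR-20a minus miR-NT) of each HOX probe set with its 95% interval from the limma fit, in columns by cluster and paralogue number, filled where the arrays of the groups did not overlap. The intervals of 3 probe sets, of HOXB3, HOXB9 and HOXD13, lay wholly below 0, and none lay wholly above it.

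Read by paralogue number, the signs were not shared across the whole set. All 3 probe sets of group 6, from HOXB6 and HOXC6, had a higher mean in miR-20a cells, and 2 of them were the only HOX probe sets whose miR-20a arrays both exceeded the miR-NT arrays. All 6 probe sets of group 13, from HOXB13, HOXC13 and HOXD13, had a lower mean, with a median change of -0.09, and 2 of them did not overlap. In group 8, 3 of 4 probe sets were below without overlap (both of HOXB8 and that of HOXC8), while HOXD8 had a higher mean. Over all probe sets, 55.2% had a lower mean, 27.2% lay below without overlap and 21.7% lay above without overlap. The 4 probe sets of group 4 all had a lower mean, with changes between -0.11 and -0.02. By broader region, the median change was -0.09 for groups 1 to 3, -0.06 for groups 4 to 8 and -0.06 for groups 9 to 13. No test compared paralogue groups, which were described after their values were seen.

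Several probe sets were available for 12 HOX genes. For 10 of the 12 they shared a sign, lower in 7 genes and higher in 3 (HOXB6, HOXD9 and HOXD10), and for HOXB7 and HOXD1 they did not. Levels within a gene differed far more than the groups did: the gap between the brightest and the dimmest probe set had a median of 1.501 log2 units and reached 2.68 for HOXB9. Probe sets of 1 gene share the RNA and are not replicates.

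The change over all probe sets depended on the level, and the HOX medians did not follow the same order. The probe sets were ordered by mean level and divided into bands 1 to 4, from the dimmest to the brightest, of 10480 each. The median change of all probe sets in these bands was -0.04, -0.05, -0.04 and 0.08. The medians of the 5, 14, 18 and 5 HOX probe sets in them were -0.09, -0.02, -0.07 and -0.03. In the dimmest band 5 of 5 HOX probe sets had a lower mean, against 62.8% of all, and 3 lay below without overlap, against 26.5%. In band 2 a lower mean was seen for 8 of 14, against 63.2% of all, and 2 lay below, against 29%. In band 3 it was 12 of 18, against 58.9%, and 5 lay below, against 31.4%. In the brightest band it was 4 of 5, against 36.1%, and 2 lay below, against 21.7%. Of the 3 HOX probe sets with lower values at an unadjusted p under 0.05, 0 were in band 1 and 1 each in bands 2, 3 and 4, where 6.3%, 9.3%, 11% and 7% of all probe sets were. In 40 bins of level with 1048 probe sets each, 25 of 42 HOX probe sets lay under the median of their bin. Below the 5th percentile of its bin was 1 HOX probe set, the brighter one of HOXB3, at -0.36 where that percentile was -0.28. No HOX probe set was above the 95th percentile. HOXB2, at a change near 0, lay under its bin's median of 0.16.

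**Figure D3:**
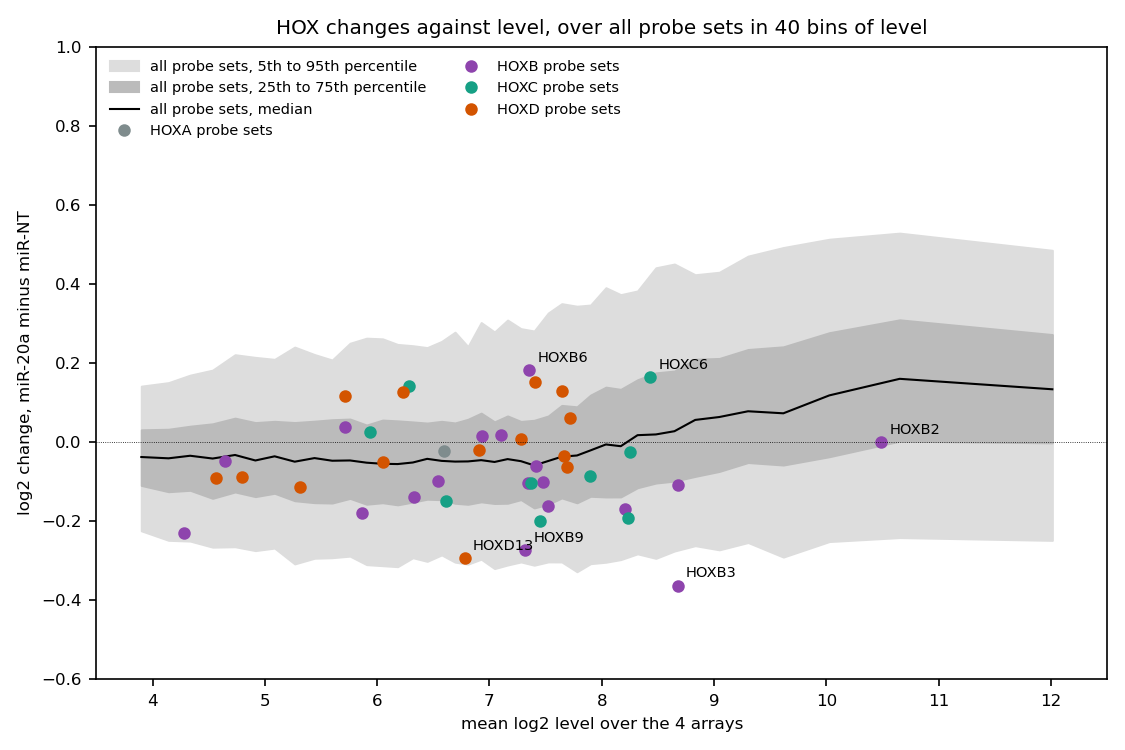
Log2 change (miR-20a minus miR-NT) against mean log2 level over the 4 arrays, with HOX probe sets as points coloured by cluster over the percentiles of all probe sets in 40 bins of level. Of the 42 HOX points only HOXB3 leaves the pale band between the 5th and 95th percentiles.

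A sign of RNA quality differed between the groups, and marker genes of cell types were compared as well. For ACTB, the array's control for degraded RNA, the 3′ signal exceeded the 5′ signal by 0.49 ± 0.04 log2 units in miR-20a cells and by 0.27 ± 0.11 in miR-NT cells (SD, n = 2 each). Among the fixed marker lists, 25 of 35 glial and neural probe sets (71.4%) had a lower mean in miR-20a cells. So did 11 of 16 for blood (68.8%), 12 of 14 for endothelial (85.7%) and 6 of 9 for epithelial cells (66.7%). Over all probe sets the share was 55.2%. The mean level of the endothelial list was 6.14 and 6.18 on the miR-20a arrays against 6.26 and 6.25 on the miR-NT arrays, and that of the glial list 7.497 and 7.453 against 7.57 and 7.56. The blood list gave 5.99 and 6.12 against 6.09 and 6.07, and the epithelial list 5.70 and 5.80 against 5.78 and 5.74. None of the markers passed the threshold, where 0.119% of all probe sets rose past it and 0.0167% fell past it. The smallest p belonged to SOX9, a glial transcription factor, at -0.66 ± 0.09 (SE, limma adjusted p = 0.088). The next glial markers, NES and FABP7, had changes of -0.40 and -0.26, and a dimmer FABP7 probe set had one of 0.22. From the other lists, CD3E, PTPRC and ITGAM had changes of -0.28, 0.25 and -0.13. The PTPRC probe set was dim, at 3.97, and overlapped, and the other PTPRC probe sets changed by between -0.09 and 0.08. ERG, VWF and TEK had changes of -0.34, -0.22 and -0.20 (another ERG probe set had one of 0.31, also without overlap). KRT5, KRT19 and KRT14 had changes of -0.22, 0.16 and 0.10. The part of these differences in the HOX values was not tested.

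Around the clusters, 1 gene of the regulator lists passed the threshold, in the retinoic acid pathway. ALDH1A3, an enzyme that makes retinoic acid from retinaldehyde, was at 11.31 and 11.13 log2 units in miR-20a cells against 10.23 and 10.06 in miR-NT cells. The miR-20a arrays were far above the miR-NT arrays, and ALDH1A3 rose 2.10-fold (log2 change 1.07 ± 0.11, SE, limma adjusted p = 0.036). Of the fits without 1 array, the call was lost on leaving out miR-NT replicate 1 (limma adjusted p = 0.38), miR-NT replicate 2 (0.30) or miR-20a replicate 1 (0.077), while the change stayed between 0.93 and 1.16 over these and the other settings. A second ALDH1A3 probe set, at a level near 6.14, changed by only 0.04 ± 0.11.

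Of the 31 probe sets of the retinoic acid list, the mean of miR-20a cells was the higher in 12 and the lower in 19, where 55.2% of all were lower. Where a gene has several probe sets, the one with the smallest p is given. RARA, a retinoic acid receptor, was at 6.59 and 6.50 in miR-20a cells against 6.94 and 6.99 in miR-NT cells, a change of -0.41 ± 0.09 (SE, limma adjusted p = 0.14). Of its 5 probe sets 4 lay below without overlap, where 27.2% of all probe sets did. The brightest RARA probe set had a change of 0.55 ± 0.35 and overlapped, at 11.04 and 9.90 against 9.69 and 10.16. RXRB, a partner receptor, was at 6.55 and 6.38 against 6.86 and 6.83 (change -0.37 ± 0.10). CDX2, an intestinal and posterior patterning factor that acts upstream of HOX genes, was at 7.57 and 7.74 against 7.96 and 7.90 (change -0.27 ± 0.10). In these 3 probe sets the miR-20a arrays lay below the miR-NT arrays, as in 27.2% of all probe sets. Of the list, 1 rose past the threshold and 0 fell, where 0.119% and 0.0167% of all probe sets did. With no adjustment, a p under 0.05 was reached by 1 higher and 7 lower probe sets, where 9.46% and 8.4% of all were. The list's median change was -0.09.

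Cofactors and chromatin regulators gave no calls, where 0.119% of all probe sets were called higher and 0.0167% lower. Among 20 probe sets of 8 TALE genes, none passed, and an unadjusted p under 0.05 (limma) was reached by 0 higher and 2 lower ones, against 9.46% and 8.4% of all (median change -0.04). PKNOX1 was at 6.78 and 6.36 in miR-20a cells against 7.04 and 7.11 in miR-NT cells by 1 of its 5 probe sets, and PBX2 at 7.35 and 7.48 against 7.97 and 7.65. The other 4 probe sets of PKNOX1 overlapped, with changes between -0.09 and 0.13. Those of PBX2 had changes of -0.21 and -0.22, without overlap, and 0.03, with overlap. MEIS1 was higher by 0.20 ± 0.11 at a low level of 5.64, while its other probe set, at 5.54, overlapped, with a change of -0.01.

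Of 52 probe sets of 19 Polycomb genes, 0 passed in either direction (limma), and an unadjusted p under 0.05 was reached by 2 higher and 8 lower ones, against 9.46% and 8.4% of all (median change 0.00386). PCGF2, a PRC1 subunit, was at 8.46 and 8.46 in miR-20a cells against 9.13 and 8.86 in miR-NT cells by its brightest probe set (change -0.53 ± 0.11, limma adjusted p = 0.14). Its others had changes of -0.29 and -0.04, without overlap, and -0.08, with overlap. EED, the PRC2 subunit that reads methylated histone H3, was higher, at 8.04 and 7.82 against 7.56 and 7.57. AEBP2, a PRC2 partner, had a change of -0.32 ± 0.09 in a dim probe set at 4.29, while its brighter one at 7.54 overlapped, with a change of 0.21 ± 0.13.

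Of 32 probe sets of 10 trithorax and H3K27 demethylase genes, 0 passed (limma), with an unadjusted p under 0.05 for 1 higher and 2 lower ones, against 9.46% and 8.4% of all (median change -0.04). DPY30, a subunit of the MLL complexes, was at 9.82 and 9.96 in miR-20a cells against 9.44 and 9.55 in miR-NT cells, without overlap. DOT1L, a histone H3 methyltransferase, had a change of -0.30 ± 0.10 in 1 probe set, while its others overlapped, with changes of 0.01 and -0.03. KDM6B, a demethylase of H3K27, had one of -0.23 ± 0.09 in 1 probe set. The other KDM6B probe sets had changes between -0.17 and -0.02, and all but the brightest overlapped.

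Noncoding RNAs within the clusters and the genes at their edges gave no calls either, against the same 0.119% and 0.0167% of all. Among 15 probe sets of 6 antisense and intergenic HOX RNAs, an unadjusted p under 0.05 (limma) was reached by 0 higher and 1 lower one, against 9.46% and 8.4% of all (median change -0.06). HOXA11-AS was at 5.08 and 5.33 in miR-20a cells against 5.59 and 5.52 in miR-NT cells by 1 of its 2 probe sets. HOXA-AS2 had a change of -0.23 ± 0.10 in a dim probe set at 4.60. Its others had changes of -0.15, without overlap, and 0.10, with overlap. HAGLR, which lies in the HOXD cluster, had a change of -0.20 ± 0.09 by its brightest probe set. Its others had changes of -0.19, without overlap, and 0.03, with overlap. Of 28 probe sets of 11 flanking genes, an unadjusted p under 0.05 (limma) was reached by 4 higher and 4 lower ones. The shares of all were again 9.46% and 8.4%, and the median change of these 28 was -0.00413. LNPK, beside HOXD, was higher by 0.49 ± 0.14 in 1 probe set and by 0.37 ± 0.14 in another, while its brightest of 3 overlapped, with a change of -0.11 ± 0.13. EVX1, the homeobox gene beside HOXA, had a change of -0.39 ± 0.12. SMUG1, beside HOXC, had one of -0.27 ± 0.09, while its brightest probe set had one of 0.05 ± 0.09, with the miR-20a arrays above.

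**Figure D4:**
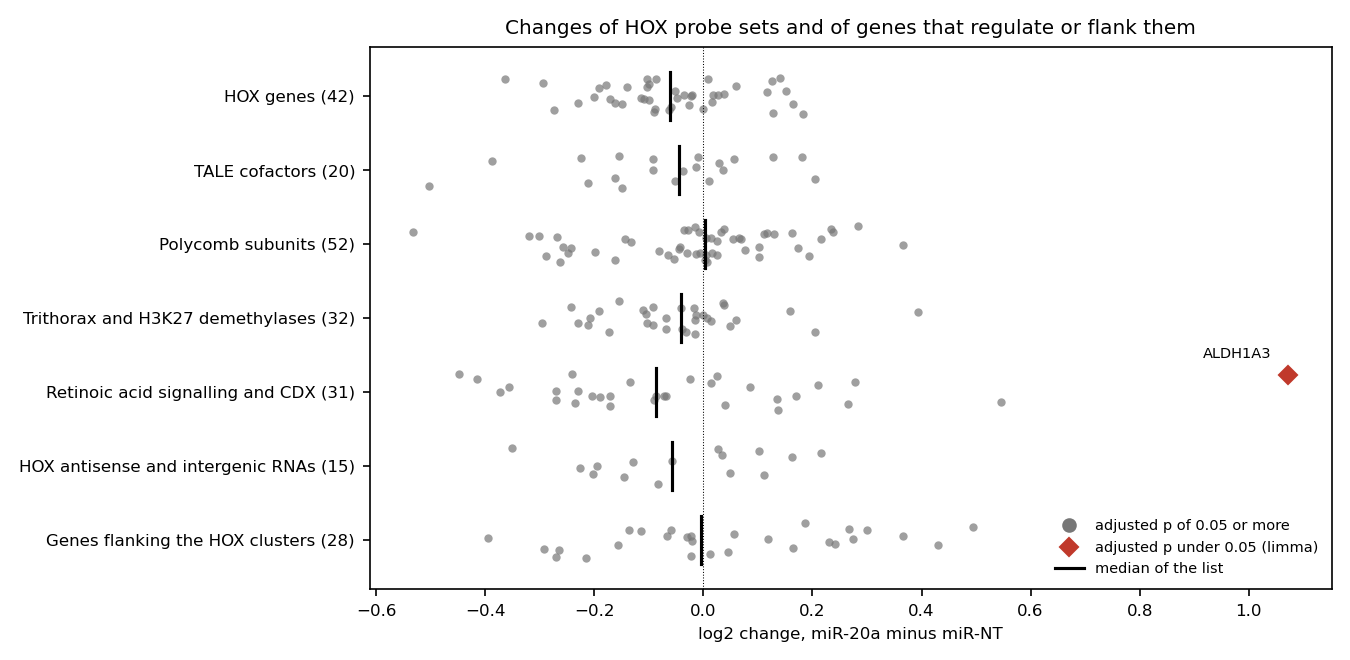
Log2 change (miR-20a minus miR-NT) of every probe set of the HOX genes and of 6 lists of genes that regulate, accompany or flank them, with vertical bars at the list medians and the number of probe sets in brackets. ALDH1A3, at 1.07, is the only point past the threshold, and the medians lie between -0.09 and 0.00386.

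Promoter windows were looked at for the members that RefSeq's table holds (GRCh38.p14, 250 bases before to 50 after the start), which were 11 of the 28 genes. Each was searched on both strands for TGATTNAT, bound by HOX with PBX proteins, for the TATA box TATAAA, for the CCAAT box and for AGGTCA, the core of sites for retinoic acid receptors. TGATTNAT was in 2 of the 11 windows, HOXA2 and HOXD11, and in 2.82% of 35116 windows of all genes. TATAAA was in that of HOXD13 alone, against 11.5% of all. CCAAT was in 9 of 11, against 34.6% of all, and AGGTCA in 0 of 11, against 13.8% of all. The 11 windows had a median of 19 CG dinucleotides, against 14 over all windows. HOXC4 and HOXC5 have the same annotated start and so the same window, although their probe sets differed, with changes of -0.03 and -0.10.

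The windows of HOXD13, 1 of the 3 genes with an unadjusted p under 0.05, of HOXA2, the single HOXA member and 1 of those with a TGATTNAT match, and the shared window of HOXC4 and HOXC5 are shown, with TGATTNAT, TATAAA and CCAAT matches on either strand in capitals. In HOXD13 the TATAAA matches of the 2 strands overlap. The HOXD13 window is chr2:176092471-176092770 on the plus strand, that of HOXA2 chr7:27102634-27102933 on the minus strand and the shared one chr12:54016638-54016937 on the plus strand.
HOXD13: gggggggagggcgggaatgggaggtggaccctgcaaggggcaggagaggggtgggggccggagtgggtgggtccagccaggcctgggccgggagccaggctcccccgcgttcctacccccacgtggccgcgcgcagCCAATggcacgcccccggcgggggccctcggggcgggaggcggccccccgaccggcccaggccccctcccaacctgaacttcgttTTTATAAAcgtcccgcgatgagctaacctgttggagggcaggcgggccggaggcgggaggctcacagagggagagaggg
HOXA2: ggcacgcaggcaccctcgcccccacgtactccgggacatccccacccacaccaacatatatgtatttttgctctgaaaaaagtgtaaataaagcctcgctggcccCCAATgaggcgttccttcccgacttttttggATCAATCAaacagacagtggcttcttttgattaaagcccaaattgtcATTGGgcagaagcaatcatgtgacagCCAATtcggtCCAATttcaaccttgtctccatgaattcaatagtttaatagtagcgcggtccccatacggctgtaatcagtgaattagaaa
HOXC4 and HOXC5: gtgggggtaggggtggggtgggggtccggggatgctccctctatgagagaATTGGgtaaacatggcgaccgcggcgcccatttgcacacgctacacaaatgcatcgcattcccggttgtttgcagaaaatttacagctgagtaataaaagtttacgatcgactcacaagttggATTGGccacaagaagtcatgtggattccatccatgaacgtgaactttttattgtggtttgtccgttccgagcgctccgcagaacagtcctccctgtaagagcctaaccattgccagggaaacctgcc
These matches describe the printed letters only, and no binding was measured here.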

How the data were processed

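Total RNA was labelled with biotin and read on 4 arrays, 2 per group. The values deposited by the authors are log2 probe-set levels, not centred per gene. Per the submitters' processing notes they were made with the R package affy. How background and scale were treated is not stated there. The log base was inferred from the deposited values (3.45 to 15.07). Of 41930 probe sets, 10 were array controls. Gene names came from GEO's platform annotation, checked by Entrez identifier against RefSeq (0 symbols changed): 37465 probe sets named 1 gene, 1727 several and 2728 none. The annotation names no genome build.

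The deposited scaling was kept, with no filter on low values. Every probe set other than a control entered 1 fit of miR-20a against miR-NT (limma 3.58.1 run under R 4.3.3, with lmFit then eBayes and no covariate), with two-sided p-values adjusted by Benjamini-Hochberg over 41920 probe sets. An exact permutation test of 2 arrays against 2 cannot give a p below 0.333. The fit was tested on 20 simulated data sets, each with 200 changed probe sets of 41920. It called 0.45% of changes of 0.5 log2 units and 75.2% of changes of 1 log2 unit. The simulated noise was independent between probe sets. In the real data 17.9% of probe sets had an unadjusted p under 0.05 (limma), so the rates there may differ. The largest HOX change was 0.36, so the lack of HOX calls does not show that these genes were unchanged. The members and the gene lists, which were compiled from general knowledge, were chosen with earlier results of these data known. Probe sets were named for a value past the threshold, for the 10 smallest p, for the 10 brightest HOX genes, and, in the other lists, for a call or the 3 smallest p, and QKI was named whatever its value. Some glial markers were also named for their level, and some further probe sets of named genes where they differed. Same-numbered arrays deviated with a correlation of -0.12, so the numbers were not treated as pairs. Other settings were scalings, a filter, a variance trend, values per gene, a looser threshold, a replicate block and leaving out each array.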

Additional observations from a re-analysis of the deposited data

Results flagged for a closer look

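Control probe sets that enter no comparison stood out. The ACTB 3′ minus 5′ difference was 0.486 log2 units on the miR-20a arrays, above the 0.272 of the miR-NT arrays, and the GAPDH difference was 0.275, above 0.222. Both controls were higher on each miR-20a array than on each miR-NT array. Their part in the HOX values was not tested.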

How the results depend on the processing

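No HOX probe set passed the threshold in either direction under any setting that was run (limma). The median HOX change stayed below 0, between -0.10 and -0.02 without 1 array and between -0.06 and -0.03 otherwise. HOX probe sets lower at an unadjusted p under 0.05 numbered 1 after cyclic loess and 1 to 3 without 1 array, and those higher 0 to 1 without 1 array. Over all probe sets the 57 calls became 334 with the lowest 40% left out, 957 with a variance trend and robust fit, 153 with probe sets averaged per gene, 159 at an adjusted p under 0.10, and 0 to 66 without 1 array, with 0 for each miR-NT array left out. With a replicate block 0 passed (7487 probe sets at an unadjusted p under 0.05 without the block, 5754 with it), with ALDH1A3 at an adjusted p of 0.36, and 0 passed with the crossed pairing, which was added after seeing the data. Signs turned for small changes only: median centring, which moved the median of all probe sets to 0.01, gave HOXB2 0.033 and HOXC4 0.0076. Without 1 array HOXB2 lay between -0.026 and 0.024, HOXC4 between -0.18 and 0.13, HOXC10 between -0.18 and 0.0036 and HOXD9 between -0.072 and 0.19; the cause was not tested. With 1 array left in a group, that array is assumed to vary like the others. The number of arrays and the missing detection calls limit what can be said of dim probe sets.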
